A study of Homo sapiens with 8 samples.

Results

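C4-2BENZR is an enzalutamide-resistant form of the human prostate cancer cell line C4-2B. The comparison with the sensitive line rests on 4 of the 8 RNA-seq libraries of the study, taken by their labels: 2 libraries of C4-2BENZR cells and 2 of C4-2B cells, labelled as biological replicates. Both lines carry a luciferase and a GFP transgene, and no other allele is labelled. C4-2B is a castration-resistant derivative of LNCaP that grows with little androgen. Enzalutamide blocks androgen signalling; whether the drug was present when RNA was taken is not given in the sources used here. All 13969 genes listed for these libraries were members, and the 13280 that reached a level of 1 in at least 2 libraries were tested. Each group is repeats of 1 line, so p-values cover the spread between libraries and cannot tell resistance apart from other differences between these lines.

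The libraries held 20248655 and 16699735 reads in the listed genes in C4-2BENZR, against 20008736 and 19956054 in C4-2B. A level is the deposited signal, reads divided by a size factor of each library. It has no correction for gene length, so levels are compared between libraries and not between genes. Summed over the listed genes, levels were 956812 and 967054 in C4-2BENZR, against 1031964 and 1032917 in C4-2B. The factor was therefore not the total of these reads alone. A log2 change is that of level + 1, C4-2BENZR over C4-2B, and understates the change of genes at low levels. "Rose" and "fell" are used of genes with an adjusted p below 0.05 (limma, Benjamini-Hochberg over all tested genes). The median difference between replicates was 0.10 on the log2 scale. Markers of luminal prostate epithelium, the cell type of the label, were present: of the 12 on the list, all tested, 8 rose and 3 fell, KLK3, HOXB13 and FOLH1. The summed level of the 12 was 5141 and 5257 in C4-2BENZR, against 5887 and 5915 in C4-2B. The fall of KLK3 alone, given below, was larger than this drop, so the sum does not stand for the other markers. Among those that rose was EPCAM, an epithelial adhesion molecule, at 113 and 117 in C4-2BENZR, against 89.9 and 91.4 in C4-2B. KRT18, a luminal keratin, rose too, at 457 and 456 in C4-2BENZR, against 399 and 411 in C4-2B. Its call was lost without the first or second C4-2BENZR library or the first C4-2B library (log2 changes 0.17, 0.17 and 0.15).

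Androgens act on genes through androgen response elements in DNA, which pioneer factors such as FOXA1 help to open. Classical androgen targets in luminal cells include the kallikrein proteases of seminal fluid, whose genes lie side by side on chromosome 19. The 2 kallikrein genes with the best known androgen response elements behaved in opposite ways here, so their promoters are shown. Each sequence is the 250 bases before the RefSeq start (GRCh38.p14, plus strand, written 5′ to 3′), with the match to the response element in capitals; the motif was GNACA and GTNC with 4 bases of any kind between them, searched on both strands.
KLK3 (chr19:50854665-50854914): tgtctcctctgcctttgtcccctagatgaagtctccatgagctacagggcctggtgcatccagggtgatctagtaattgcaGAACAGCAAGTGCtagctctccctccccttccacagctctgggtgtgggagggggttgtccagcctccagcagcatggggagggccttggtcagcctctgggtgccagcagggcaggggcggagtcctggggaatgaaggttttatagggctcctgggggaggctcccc
KLK2 (chr19:50873189-50873438): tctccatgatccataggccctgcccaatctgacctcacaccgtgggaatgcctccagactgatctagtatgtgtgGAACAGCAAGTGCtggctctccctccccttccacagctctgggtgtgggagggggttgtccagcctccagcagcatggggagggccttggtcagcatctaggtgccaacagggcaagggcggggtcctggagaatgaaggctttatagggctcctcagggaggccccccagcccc
Both held the same 13 letters, GAACAGCAAGTGC, starting 169 bases before the start in KLK3 and 175 bases before it in KLK2. Aligned end to end the upstream sequences were identical at 211 of 263 columns (80.2%), with an unbroken shared run of 80 bases. The motif occurred in this window in 601 of the 27305 genes with a RefSeq promoter (2.20%). It occurred in 2 of the 15 androgen-regulated product genes matched to one by symbol.

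KLK3 encodes prostate-specific antigen and was at 49.2 and 48.1 in C4-2BENZR, against 2067 and 2024 in C4-2B. KLK2, which encodes a related protease, was at 211 and 225 in C4-2BENZR, against 107 and 109 in C4-2B. The groups lay apart for both genes, KLK3 42.1-fold lower and KLK2 2.02-fold higher in C4-2BENZR (log2 changes −5.37 and 1.01; limma adjusted p = 1.47e-20 and 3.28e-10). KLK15 was at 1.46 and 1.8 in C4-2BENZR, against 14.5 and 9.73 in C4-2B, and the pseudogene KLKP1 was at 0.709 and 0.521 in C4-2BENZR, against 3.46 and 3.62 in C4-2B; both fell. KLK4, an enamel and prostate protease, fell less, to 88.5 ± 5.5 in C4-2BENZR, against 103 ± 1.06 in C4-2B (SD, n = 2 libraries per group, as in all such values); this call was lost without the second C4-2BENZR library (log2 change −0.16, limma adjusted p = 0.133) and without the second C4-2B library (−0.21, adjusted p = 0.0523). Of the 5 tested kallikrein genes on the list 1 rose and 4 fell; KLK1, which is not on it, fell too (log2 change −0.99).

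FKBP5, a co-chaperone of steroid receptors, was at 692 and 704 in C4-2BENZR, against 357 and 383 in C4-2B and rose. Of the coactivators NCOA3 rose and NCOA1 fell (log2 changes 0.47 and −0.70). FOXA1 was at 441 and 451 in C4-2BENZR, against 452 and 476 in C4-2B and was not called (log2 change −0.06, adjusted p = 0.344). The homeobox factor HOXB13 fell to 360.4 ± 9.25 in C4-2BENZR, against 517 ± 1.26 in C4-2B. The pioneer factor GATA2 was at 257 and 256 in C4-2BENZR, against 295 and 287 in C4-2B, a small fall that was not called without either C4-2BENZR library (log2 change −0.18, adjusted p = 0.0605 without the first and 0.0628 without the second). Of the 16 tested pioneer and partner genes 8 rose and 3 fell (7 and 5 without the second C4-2B library); over all 13280 tested genes 27.8% rose and 29.0% fell.

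**Figure D1:**
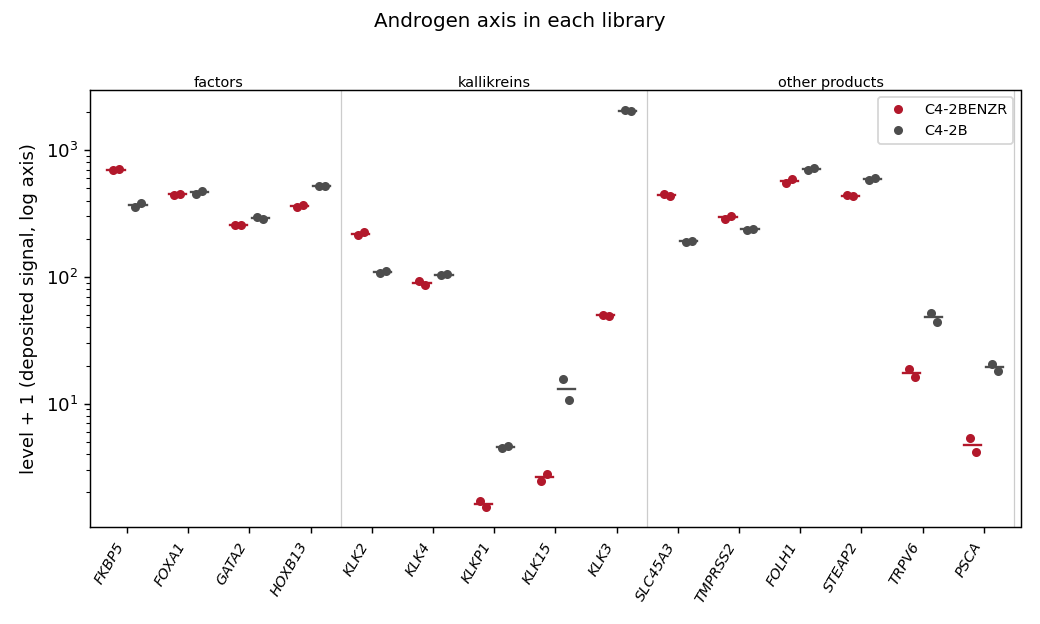
Level + 1 (log axis) of 15 genes of the androgen axis in each library, C4-2BENZR in red and C4-2B in grey; points are libraries and bars are group means. KLK3 stood at 49.2 and 48.1 in C4-2BENZR against 2067 and 2024 in C4-2B, while KLK2 lay higher in both C4-2BENZR libraries than in either C4-2B library.

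Among other androgen-regulated products, SLC45A3, a prostate-specific sugar transporter family member, was at 446 and 433 in C4-2BENZR, against 186 and 193 in C4-2B and rose 2.32-fold. TMPRSS2, a membrane serine protease, rose to 294 ± 11.7 in C4-2BENZR, against 236 ± 2.31 in C4-2B. PSCA, a cell surface antigen, was at 4.35 and 3.13 in C4-2BENZR, against 19.6 and 17 in C4-2B, and TRPV6, a calcium channel, was at 17.7 and 15.1 in C4-2BENZR, against 51.2 and 43 in C4-2B; both fell, and in both genes each C4-2BENZR library was below each C4-2B library. FOLH1, which encodes prostate-specific membrane antigen, fell 1.25-fold to 569 ± 33.6 in C4-2BENZR, against 711 ± 19.5 in C4-2B. In this group of 15 tested genes 6 rose and 7 fell (3 and 6 without the first C4-2BENZR library), with a median log2 change of −0.05 that turned to 0.03 under scaling by total counts. Genes of androgen synthesis moved little, with 7 of 10 not called and the other 3 calls lost without a C4-2BENZR library: HSD3B7 (log2 change 0.31, adjusted p = 0.0598 without the first), SRD5A1 (−0.42, adjusted p = 0.0501 without the second) and STS (−0.57, adjusted p = 0.0604 without the second). Genes of androgen inactivation split, with the glucuronosyltransferase UGT2B11 at 6.14 and 5.85 in C4-2BENZR, against 0.516 and 0.88 in C4-2B (higher) and its relative UGT2B17 at 0.378 and 0.579 in C4-2BENZR, against 1.81 and 2.23 in C4-2B (lower); UGT2B genes are near-identical copies whose reads may be shared.

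Across the transcriptome 3691 genes rose and 3856 fell (27.8% and 29.0%), together 56.8% of the genes tested. Counts of called members in the gene groups above and below stand against these shares. Without the first or the second C4-2BENZR library, 2417 and 2400 rose. Most of these changes were small: 4436 were under 1.5-fold. At 2-fold or more 818 genes rose and 500 fell (6.16% and 3.77% of genes tested), at 4-fold or more 202 and 105, and at 16-fold or more 15 and 14. When libraries were scaled by total counts alone (edgeR), the median gene stood at a log2 change of 0.10 and 4746 genes were higher and 2921 lower, so a direction rests on the deposited scaling where the change is about 0.1 or less.

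**Figure D2:**
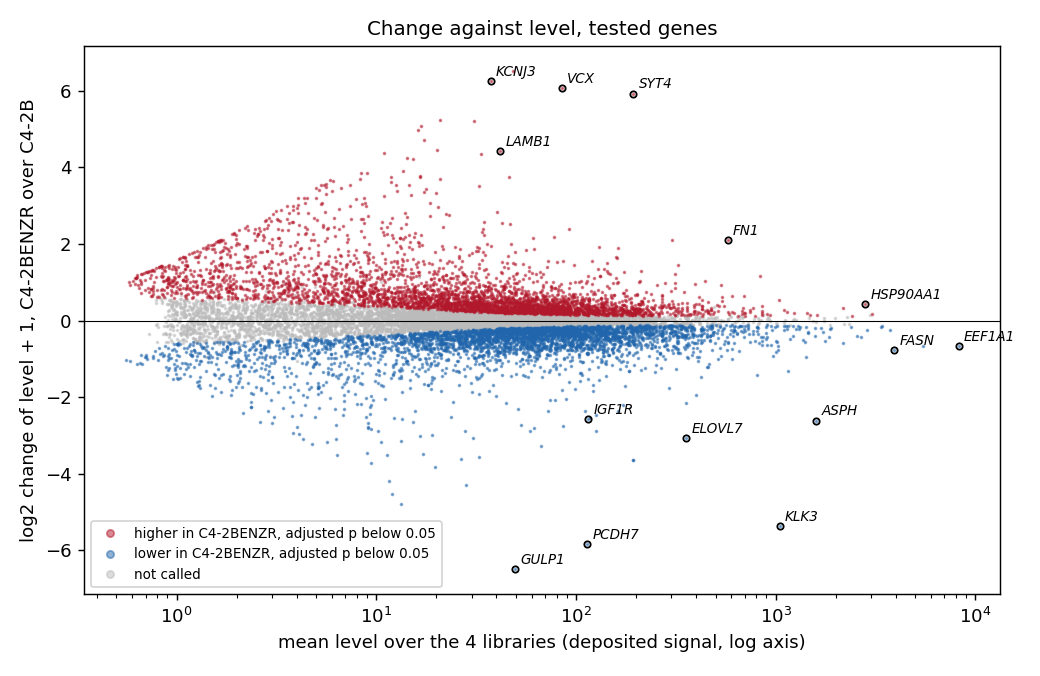
Log2 change of level + 1 against the mean level over the 4 libraries (log axis) for the tested genes, those of chromosome Y not drawn; red genes rose, blue fell, grey were not called. KLK3 and ASPH combine a high level with a large fall, and SYT4 and FN1 a high level with a large rise.

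The genes with the largest gains and losses in level are those of abundant messages. FN1, which encodes the matrix protein fibronectin, was at 973 and 890.2 in C4-2BENZR, against 224 and 211 in C4-2B. BTG1, an antiproliferative gene, was at 485 and 495 in C4-2BENZR, against 114 and 114 in C4-2B, with the C4-2B libraries at nearly the same level and both far below C4-2BENZR. Other abundant genes gained too, by smaller folds: the alpha tubulin TUBA1B was 1.25-fold higher, the chaperone HSP90AA1 1.35-fold, and ODC1, the first enzyme of polyamine synthesis, 1.45-fold. On the losing side, which includes KLK3, the translation elongation factor EEF1A1 was at 6186 and 6574 in C4-2BENZR, against 9842 and 10373 in C4-2B. ASPH, an aspartate hydroxylase of the endoplasmic reticulum, was at 445 and 451 in C4-2BENZR, against 2643 and 2868 in C4-2B, 6.16-fold lower. FASN, fatty acid synthase, was at 3051 and 2713 in C4-2BENZR, against 5308 and 4569 in C4-2B, and the elongation factor EEF2 at 4153 and 4321 in C4-2BENZR, against 6713 and 6643 in C4-2B. NAP1L1, a histone chaperone, fell 2.49-fold, the lipase gene ABHD2 1.94-fold and the brain creatine kinase CKB 1.5-fold. In each of these genes both C4-2BENZR libraries lay on the same side of both C4-2B libraries.

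A set of 23 genes was all but absent from C4-2B, with at most 3 reads over both libraries, and stood at 5 or more in both C4-2BENZR libraries. A gene without a read can still lie below a level of 0.155, the worth of 3 reads in a C4-2B library. The most abundant without a C4-2B read was KCNJ3, a potassium channel subunit gated by G proteins, at 77 and 72.7 in C4-2BENZR, against 0 and 0 in C4-2B. VANGL2, a planar cell polarity gene, was at 11 and 12.6 in C4-2BENZR, against 0 and 0 in C4-2B, at least 75.9-fold higher against the worth of 3 reads per library. The protease TLL1, which cleaves matrix precursors and BMP antagonists, was at least 68.1-fold higher, and the calcium pump ATP2A3 at least 64.3-fold. GCG, the glucagon gene, was at 9.69 and 12.7 in C4-2BENZR, against 0.0516 and 0 in C4-2B, and CRABP1, a retinoic acid binding protein, at 10.8 and 11.5 in C4-2BENZR, against 0.103 and 0.0518 in C4-2B. The kinase SGK2, the gasdermin gene DFNA5, the carnitine synthesis enzyme TMLHE, the adaptor PHLDB2 and the secreted protein CRISPLD1 belonged to the set with levels between 5.10 and 9.32 in C4-2BENZR. The converse pattern was rarer, with 4 genes: the prostaglandin receptor PTGFR, the protocadherin PCDH20, the fatty acid hydroxylase CYP4F8 at 0.0473 and 0.116 in C4-2BENZR, against 6.19 and 5.69 in C4-2B, and carbonic anhydrase CA1 at 0 and 0 in C4-2BENZR, against 5.11 and 5.38 in C4-2B. These genes had to differ by the way they were picked.

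Among the 15 highest and 15 lowest called genes with a mean of at least 5, several belonged to no list. P3H3, a collagen prolyl hydroxylase, was at 33.8 and 34.6 in C4-2BENZR, against 0.309 and 0.362 in C4-2B. TUBB4A, a beta tubulin of neurons, was at 64.8 and 63.9 in C4-2BENZR, against 1.96 and 2.48 in C4-2B. PASD1, a cancer-testis gene, was at 29.2 and 30.5 in C4-2BENZR, against 0.309 and 1.14 in C4-2B. Of the lowest, PRKACB, a catalytic subunit of protein kinase A, was at 28.4 and 27.3 in C4-2BENZR, against 349.8 and 369 in C4-2B, 12.9-fold lower. SLC16A3, a lactate exporter, was at 27.8 and 28.3 in C4-2BENZR, against 358 and 358 in C4-2B, and the replicates were nearly equal in both groups. PDIA2, a disulfide isomerase, was at 3.54 and 4.98 in C4-2BENZR, against 59.5 and 62.2 in C4-2B, the protease inhibitor CSTA at 0.851 and 1.1 in C4-2BENZR, against 18.9 and 24.3 in C4-2B and the neural adhesion gene CNTN3 at 0.331 and 0.0579 in C4-2BENZR, against 11.2 and 13.8 in C4-2B.

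Neuroendocrine prostate cancer is a treatment-resistant form that loses androgen signalling and gains neuronal genes under proneural factors. Here the proneural and neuroendocrine factors INSM1 and NEUROG3 had no read in any of the 4 libraries. Of 14 tested genes on the list of neural lineage factors 5 rose and 3 fell. These shares were 35.7% and 21.4%, against 27.8% and 29.0% over all tested genes. Of the 30 symbols on that list 17 were among the genes listed for these libraries. TRPS1, a GATA-type repressor, rose and was at 35 and 28 in C4-2BENZR, against 0.98 and 1.86 in C4-2B. SOX4 was at 295 and 306 in C4-2BENZR, against 123 and 121 in C4-2B. SOX9 was at 11.7 and 13 in C4-2BENZR, against 3.77 and 5.38 in C4-2B. ASCL2 and HES6 fell (log2 changes −1.16 and −0.89). REST, the repressor of neuronal genes, was at 69.4 and 71.2 in C4-2BENZR, against 66 and 59.5 in C4-2B and was not called in the main fit. It was called as higher under scaling by total counts (log2 change 0.27, edgeR adjusted p = 0.0045). The same held with the replicate number as a block (limma adjusted p = 0.0270) and without the first C4-2B library (log2 change 0.24). Genes of vesicle fusion went both ways. SYT4, a synaptotagmin of dense core vesicles, was at 381 and 381 in C4-2BENZR, against 5.36 and 5.28 in C4-2B. CADPS2, which primes such vesicles for release, was at 1.89 and 1.62 in C4-2BENZR, against 38.3 and 36.9 in C4-2B, and RIMS1, a release site scaffold, at 10.1 and 9.27 in C4-2BENZR, against 28.4 and 29.9 in C4-2B. For these 3 genes the groups lay far apart, higher for SYT4 and lower for CADPS2 and RIMS1. Of 21 tested vesicle genes 10 rose and 4 fell (6 and 3 without the first C4-2BENZR library), and of 8 granule cargo and processing genes 4 rose and 3 fell. PCSK1N, an inhibitor of prohormone processing, rose to 18.8 ± 1.21 in C4-2BENZR, against 4.16 ± 1.44 in C4-2B. VGF, a granule peptide precursor, fell to 8.59 ± 0.459 in C4-2BENZR, against 19.6 ± 0.316 in C4-2B.

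Potassium channel genes also split, 11 of 25 higher and 6 lower (44.0% and 24.0%, against 27.8% and 29.0% over all tested genes). All 3 inward rectifiers that were called rose, KCNJ3 with KCNJ12 at 4.44 and 5.56 in C4-2BENZR, against 0.67 and 0.155 in C4-2B and KCNJ8 at 1.51 and 1.16 in C4-2BENZR, against 0 and 0 in C4-2B. KCNG1, a silent voltage-gated subunit, was at 10.2 and 9.61 in C4-2BENZR, against 1.08 and 0.828 in C4-2B. The delayed current channel KCNQ5 was at 5.72 and 5.33 in C4-2BENZR, against 15.2 and 15.1 in C4-2B and KCND3, of the transient outward current, at 0.142 and 0 in C4-2BENZR, against 2.68 and 2.28 in C4-2B; both fell. Axon guidance genes encode secreted and membrane cues with their receptors, which also steer epithelial and vascular cells. Of 52 tested, 31 rose and 5 fell, with a median log2 change of 0.40 against −0.0008 over all tested genes. Of the semaphorins and plexins, SEMA6A was at 59.2 and 62.4 in C4-2BENZR, against 0.825 and 0.518 in C4-2B, PLXND1 at 38.1 and 35.3 in C4-2BENZR, against 3.97 and 3.73 in C4-2B and the co-receptor NRP1 at 81 and 79.7 in C4-2BENZR, against 12.1 and 14.5 in C4-2B; both C4-2BENZR libraries were above both C4-2B libraries in each. SEMA4A was the 1 of these 23 that fell (log2 change −0.32). Of the ephrins and their receptors EFNB3 was at 13 and 13 in C4-2BENZR, against 0.309 and 0.259 in C4-2B and EPHB2 at 18.9 and 19.9 in C4-2BENZR, against 2.84 and 3.67 in C4-2B, while EPHB6 fell to 0.434 ± 0.122 in C4-2BENZR, against 4.42 ± 0.683 in C4-2B. TENM2, a teneurin, was at 41 and 42.2 in C4-2BENZR, against 0.206 and 0.0518 in C4-2B. Its relative TENM1 went the other way, at 4.11 and 4.75 in C4-2BENZR, against 27.3 and 26.2 in C4-2B, as did the netrin receptor UNC5A, at 0.0473 and 0.174 in C4-2BENZR, against 9.49 and 9.37 in C4-2B.

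Of the 51 tested genes of the extracellular matrix and its proteases 31 rose and 10 fell. Laminins are 3-chain proteins of basement membranes. LAMB1, a beta chain, was at 80.3 and 81.5 in C4-2BENZR, against 2.63 and 3.05 in C4-2B, and FBLN1, a fibulin that binds laminin and fibronectin, at 39.6 and 38.8 in C4-2BENZR, against 1.19 and 0.569 in C4-2B. The groups lay far apart for both genes. Of 18 tested laminin and glycoprotein genes 16 rose and 1 fell, and among those that rose were LAMC1, LAMA5, LAMB2, THBS1 and FBLN2. Their median log2 change of 0.97 depended on the settings, at 0.57 with a pseudocount of 5 and 1.77 in the count test of edgeR with scaling by total counts. The exception was LAMA3, an alpha chain of epithelial laminin, at 102 and 92.5 in C4-2BENZR, against 244 and 225 in C4-2B. Collagens were mixed: 7 of 14 rose and 2 fell, with COL1A1 at 53.4 and 48.2 in C4-2BENZR, against 15.1 and 12.3 in C4-2B and COL4A2, a basement membrane chain, at 0.945 and 0.927 in C4-2BENZR, against 8.36 and 7.45 in C4-2B. Among proteases and inhibitors SERPINE2, which inhibits thrombin, was at 23 and 32.3 in C4-2BENZR, against 1.44 and 1.4 in C4-2B and ADAMTS7 at 26.5 and 26.5 in C4-2BENZR, against 4.95 and 4.3 in C4-2B, whereas TFPI, the inhibitor of tissue factor, was at 0.331 and 0.29 in C4-2BENZR, against 23.9 and 21.9 in C4-2B and ADAM9 at 152 and 159 in C4-2BENZR, against 341 and 359 in C4-2B. Of the 10 fibroblast markers 4 were listed, with a summed level of 51.6 to 56.3 in C4-2BENZR and 14.96 to 18.5 in C4-2B, nearly all of it COL1A1; PDGFRB, LUM and ACTA2 were each below 2 in every group mean. Of 10 basal prostate markers 5 were listed, with a summed level of 26.5 and 24.96 in C4-2BENZR, against 17.8 and 17.5 in C4-2B. Of the 3 tested, the laminin chain LAMB3, at 1.84 and 2.14 in C4-2BENZR, against 0.361 and 0.621 in C4-2B, and TRIM29, at 2.84 and 2.84 in C4-2BENZR, against 0.567 and 0.259 in C4-2B, rose. The integrin ITGB4, which made up most of the sum, was not called. The basal keratin KRT14 was below 1 in every library. The part of either cell type in the matrix result was not tested.

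Of 22 tested cadherin, protocadherin and catenin genes 10 fell and 6 rose (9 and 7 under scaling by total counts, where their median log2 change went to 0.01, against −0.09 before). PCDH7 and PCDH20, protocadherins, stood at 2.6 and 3.36 in C4-2BENZR, against 228 and 222 in C4-2B and at 0.142 and 0 in C4-2BENZR, against 23.8 and 23.9 in C4-2B. PCDH19 was at 3.5 and 3.59 in C4-2BENZR, against 0.155 and 0.259 in C4-2B and rose. CTNNB1, which encodes beta-catenin, rose to 534 ± 13.9 in C4-2BENZR, against 383 ± 13.8 in C4-2B, while its adhesion partners JUP, CTNNA1 and PKP4 fell (log2 changes −0.26, −0.26 and −0.53). Of 26 tested tight junction and apical genes 6 rose and 11 fell (3 and 7 without the first C4-2BENZR library, 3 and 9 without the second), with the scaffold TJP3 at 31.4 and 28.1 in C4-2BENZR, against 15.7 and 10.6 in C4-2B (higher) and the claudin CLDN3 at 30.3 and 28 in C4-2BENZR, against 80.9 and 78.4 in C4-2B (lower). NES, the intermediate filament nestin of progenitor cells, was at 136 and 124 in C4-2BENZR, against 44.2 and 42.3 in C4-2B, about 2.996-fold higher.

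Insulin-like growth factors bind the tyrosine kinase IGF1R, which signals through the adaptors IRS1 and IRS2, and binding proteins hold the ligand in the fluid around the cell. The ligand IGF1 was at 12.9 and 13.6 in C4-2BENZR, against 102 and 107 in C4-2B. Its receptor IGF1R was at 36 and 29 in C4-2BENZR, against 200.4 and 195 in C4-2B, and IRS1 at 4.21 and 4.69 in C4-2BENZR, against 16.1 and 14.3 in C4-2B. All 3 fell, 7.88-fold, 6.08-fold and 3.42-fold, with every C4-2BENZR library below every C4-2B library (adjusted p = 1.41e-13, 3.23e-13 and 3.82e-07). IRS2 went up, at 10.4 and 10.8 in C4-2BENZR, against 4.59 and 4.81 in C4-2B. Of 7 binding protein genes tested 5 rose and 1 fell (3 and 1 without the second C4-2BENZR library): IGFBP3, the main carrier in blood, was at 20.5 and 19 in C4-2BENZR, against 2.22 and 3.62 in C4-2B, and IGFBP5 and IGFBP2 rose as well (log2 changes 1.09 and 0.32).

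Ligands of the EGF family moved in opposite directions. EGF was at 1.7 and 1.8 in C4-2BENZR, against 16 and 17.1 in C4-2B (lower), and TGFA, which binds the same receptor, at 8.84 and 7.93 in C4-2BENZR, against 1.03 and 2.59 in C4-2B (higher). HBEGF rose to 7.28 ± 1.34 in C4-2BENZR, against 3.51 ± 0.155 in C4-2B. The receptors EGFR and ERBB3 fell to 58 ± 2.22 in C4-2BENZR, against 90.4 ± 4.63 in C4-2B and to 154 ± 7.53 in C4-2BENZR, against 233 ± 8.07 in C4-2B. Feedback genes of the pathway split: PHLDA1 was at 15.9 and 13.8 in C4-2BENZR, against 103 and 115 in C4-2B and SPRY1 at 1.18 and 2.2 in C4-2BENZR, against 5.72 and 6.73 in C4-2B (lower), against ETV4 at 2.84 and 2.43 in C4-2BENZR, against 0.67 and 0.259 in C4-2B and LRIG1, which marks receptors for breakdown, at 137 and 134 in C4-2BENZR, against 87.7 and 90.9 in C4-2B (higher). Of the fibroblast growth factor receptors FGFR1, FGFR2 and FGFR4 rose and FGFR3 fell (log2 changes 0.59, 0.95, 0.77 and −0.94). NOTCH3 was at 189 and 174 in C4-2BENZR, against 87.9 and 74.4 in C4-2B and NOTCH1 at 61.2 and 55.1 in C4-2BENZR, against 121 and 111 in C4-2B, while of 10 NOTCH targets and modulators 3 fell (NRARP, HES4 and HES6) and 7 were not called (3 fell and 2 rose under scaling by total counts).

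Bone morphogenetic proteins (BMP) signal through type I receptors to SMAD1, SMAD5 and SMAD9, which with SMAD4 switch on the ID genes; secreted antagonists hold the ligands back. The ligands BMP7 and INHBB fell, to 11.9 ± 0.264 in C4-2BENZR, against 40.1 ± 1.32 in C4-2B and to 8.23 ± 0.885 in C4-2BENZR, against 23.4 ± 2.72 in C4-2B. The type I receptor BMPR1B was at 0.331 and 0.637 in C4-2BENZR, against 18.1 and 18.5 in C4-2B, 37.9-fold lower. Of 10 tested inhibitors 6 rose and 1 fell. FSTL5, a follistatin-like protein, was at 32.1 and 32.1 in C4-2BENZR, against 0.103 and 0 in C4-2B, NBL1, a secreted antagonist, at 21.3 and 22.4 in C4-2BENZR, against 0 and 0.207 in C4-2B, and BAMBI, a decoy receptor, at 74.8 and 68.4 in C4-2BENZR, against 10.6 and 8.07 in C4-2B. CHRDL1, a chordin-like antagonist, was at 5.95 and 6.2 in C4-2BENZR, against 0 and 0.0518 in C4-2B. FSTL3 was the 1 that fell (−0.79), a call lost without the first C4-2BENZR library (−0.55, adjusted p = 0.0675). SMAD1, SMAD5, SMAD9 and SMAD4 all fell (log2 changes −0.94, −0.77, −0.72 and −0.55), and the targets ID1, ID3 and ID4 rose (0.78, 1.04 and 1.10). ID1 was at 100.3 and 105 in C4-2BENZR, against 58.5 and 60.5 in C4-2B and ID3 at 84.7 and 86.7 in C4-2BENZR, against 45.8 and 37.2 in C4-2B.

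In WNT signalling a ligand binds a Frizzled receptor and beta-catenin then acts with TCF and LEF factors; R-spondins bound to LGR receptors strengthen the signal. Of 9 tested effector and target genes 6 rose and 3 were not called. RSPO4, an R-spondin, was at 9.26 and 11.2 in C4-2BENZR, against 0.103 and 0 in C4-2B and LGR4, a receptor of that family, at 44.1 and 42.3 in C4-2BENZR, against 17.8 and 16.7 in C4-2B. LEF1 was at 26.5 and 19.7 in C4-2BENZR, against 3.2 and 3.73 in C4-2B, TCF7L2 at 19.6 and 18.8 in C4-2BENZR, against 12.2 and 10.5 in C4-2B and the target AXIN2, itself a feedback inhibitor, at 7.42 and 8.69 in C4-2BENZR, against 3.35 and 3.99 in C4-2B. The C4-2BENZR libraries were above the C4-2B libraries in all 5. NKD2, another inhibitor of the pathway, rose to 4.44 ± 0.269 in C4-2BENZR, against 1.11 ± 0.0337 in C4-2B; TCF7, AXIN1 (adjusted p = 0.0424 with the replicate number as a block) and NKD1 were the 3 not called. Ligands and receptors went both ways, with WNT5A at 21.1 and 20.2 in C4-2BENZR, against 1.5 and 1.09 in C4-2B and WNT10A at 1.51 and 0.984 in C4-2BENZR, against 4.02 and 5.07 in C4-2B, and with FZD2 and FZD9 up and FZD4 and FZD8 down (log2 changes 1.27, 1.27, −1.15 and −1.01).

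**Figure D3:**
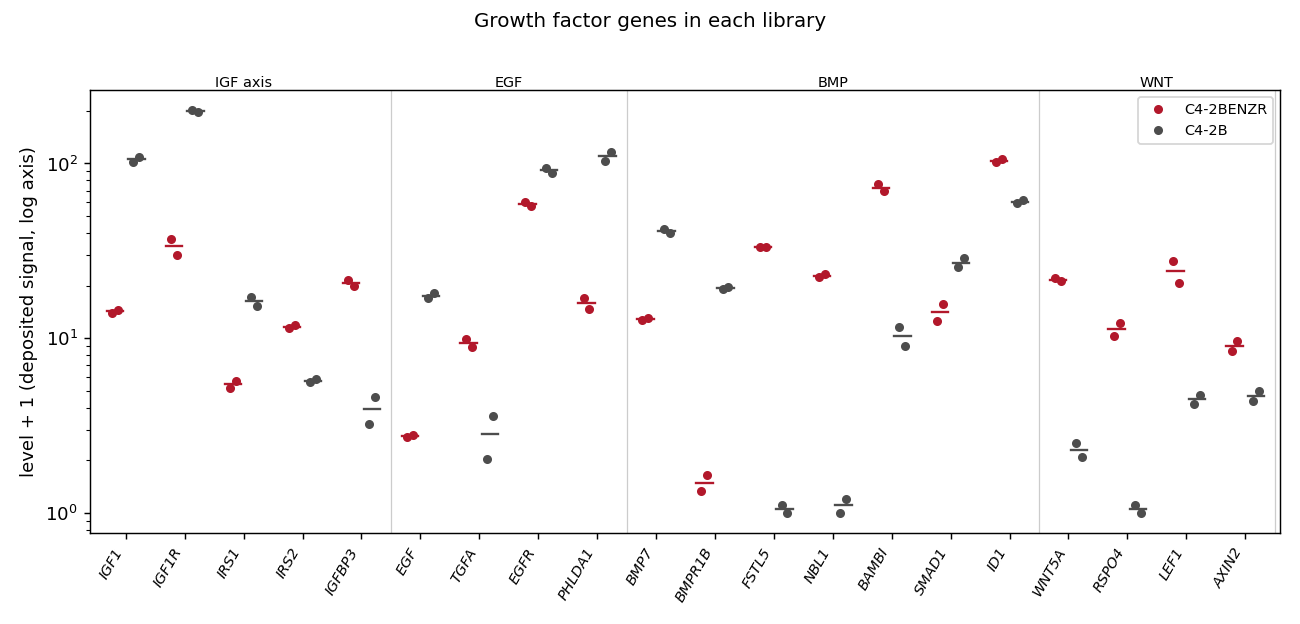
Level + 1 (log axis) of genes of the IGF axis, the EGF family, BMP signalling and WNT signalling in each library, C4-2BENZR in red and C4-2B in grey; bars are group means. IGF1, IGF1R, EGF, BMPR1B and PHLDA1 lay lower and FSTL5, NBL1, BAMBI, WNT5A and LEF1 higher in both C4-2BENZR libraries than in either C4-2B library.

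Interferons act through factors that include STAT2 and IRF9, which bind the interferon-stimulated response element, TTTC repeated after 2 bases of any kind, in the promoters of antiviral genes. The 250 bases before the start were searched on both strands. The element was found in 18 of the 27 interferon effector genes matched by symbol to a RefSeq promoter, against 1014 of 27305 genes (3.71%). Shown are a gene of the IFIT family that rose and holds 2 copies, the ADP-ribosyltransferase PARP14 that rose, and the virus tether BST2 that fell although its promoter holds the element too (GRCh38.p14, 5′ to 3′ on the gene's strand, matches in capitals; the 2 matches in BST2 overlap).
IFIT1 (chr10:89392373-89392622, plus strand): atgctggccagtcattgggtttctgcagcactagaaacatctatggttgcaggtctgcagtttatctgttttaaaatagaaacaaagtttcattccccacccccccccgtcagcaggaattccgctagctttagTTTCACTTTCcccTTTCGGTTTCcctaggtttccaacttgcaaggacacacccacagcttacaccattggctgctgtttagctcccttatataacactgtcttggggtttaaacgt
PARP14 (chr3:122680589-122680838, plus strand): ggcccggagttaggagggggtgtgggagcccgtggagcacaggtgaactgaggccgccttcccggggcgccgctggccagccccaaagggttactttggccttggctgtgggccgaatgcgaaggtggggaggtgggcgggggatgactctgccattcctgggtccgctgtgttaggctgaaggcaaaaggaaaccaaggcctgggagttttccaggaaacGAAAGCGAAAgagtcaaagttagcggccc
BST2 (chr19:17405631-17405880, minus strand): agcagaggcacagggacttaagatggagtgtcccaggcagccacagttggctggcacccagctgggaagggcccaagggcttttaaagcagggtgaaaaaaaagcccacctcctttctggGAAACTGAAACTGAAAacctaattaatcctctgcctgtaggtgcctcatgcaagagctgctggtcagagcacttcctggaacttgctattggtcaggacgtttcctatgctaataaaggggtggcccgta
IFIT1, which binds viral RNA, was at 4.91 and 5.04 in C4-2BENZR, against 0.877 and 0.518 in C4-2B. PARP14 was at 50.7 and 53.5 in C4-2BENZR, against 14.7 and 12 in C4-2B, and BST2 at 4.02 and 3.01 in C4-2BENZR, against 35.9 and 33.1 in C4-2B. Among the effectors with a promoter entry the element stood in 11 of 18 that rose, 2 of 2 that fell and 4 of 5 tested and not called.

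Of 30 tested interferon effectors 22 rose and 2 fell (median log2 change 0.90, or 0.44 with a pseudocount of 5). Under a filter of 5, which leaves fewer of them, 11 rose with a median of 0.55. Of the 44 symbols on the list 32 were in the table. The largest rise was that of IFI30, a lysosomal thiol reductase of antigen processing, at 17.6 and 14.9 in C4-2BENZR, against 0.516 and 0.155 in C4-2B. UBE2L6, the ISG15 conjugating enzyme, was at 11.7 and 16 in C4-2BENZR, against 0.774 and 0.932 in C4-2B, its replicates in C4-2BENZR further apart than those of PARP14. Many members were scarce, with IFIT2, IFIT3, OASL, TRIM22 and SAMD9 all below 5 in C4-2BENZR and below 1 in C4-2B. ISG15, at 48.3 and 46.8 in C4-2BENZR, against 45.4 and 43 in C4-2B, and MX1, at 2.17 and 1.22 in C4-2BENZR, against 1.5 and 1.14 in C4-2B, were not called. Of the 10 sensors and receptors 5 rose (3 without the second C4-2BENZR library) and 5 were not called, with TLR3 at 1.98 and 2.14 in C4-2BENZR, against 0.103 and 0.155 in C4-2B, IFIH1 at 17.1 and 17.1 in C4-2BENZR, against 7.32 and 6.42 in C4-2B and TMEM173, which encodes STING, at 4.35 and 2.9 in C4-2BENZR, against 1.19 and 1.14 in C4-2B. STAT2 rose to 52.1 ± 2.12 in C4-2BENZR, against 33.6 ± 4.08 in C4-2B, and IRF9 was not called. Of 15 tested genes of class I antigen presentation 7 rose and 3 fell (4 and 1 without the second C4-2BENZR library, 8 and 1 under scaling by total counts). Their summed level was 2603 and 2698 in C4-2BENZR, against 2905 and 2971 in C4-2B. The chaperone CALR, which is part of this sum, was at 1114 and 1135 in C4-2BENZR, against 1604 and 1617 in C4-2B and fell. Its drop was larger than that of the sum, so the sum does not stand for the other genes. The falls of the peptide trimming enzyme ERAP1 and of TAPBP, which tethers class I molecules to the transporter, were not called without the second C4-2BENZR library (adjusted p = 0.122 and 0.0848). That of ERAP1 was also lost without the first C4-2BENZR library (adjusted p = 0.128) and without the second C4-2B library (0.141). The light chain B2M was at 241 and 252 in C4-2BENZR, against 94.2 and 109 in C4-2B and the peptide transporter TAP1 at 32 and 35.4 in C4-2BENZR, against 18.5 and 14.6 in C4-2B. HLA-F rose to 5.63 ± 0.0701 in C4-2BENZR, against 2.89 ± 0.519 in C4-2B and HLA-C was not called (adjusted p = 0.0357 with the replicate number as a block), and HLA genes are alike enough to share reads. The class II genes HLA-DMB, at 3.83 and 2.14 in C4-2BENZR, against 0 and 0.155 in C4-2B, and HLA-DQB1, at 1.7 and 2.43 in C4-2BENZR, against 0 and 0 in C4-2B, were low in C4-2BENZR and nearly absent from C4-2B. Of 10 blood cell markers 2 were listed, CD68 at 10.9 ± 1.57 in C4-2BENZR, against 14.4 ± 1.79 in C4-2B and HBA1 at 0.408 ± 0.242 in C4-2BENZR, against 2.71 ± 0.176 in C4-2B. HBA1 fell, and the call of CD68 as lower was lost without either C4-2BENZR library (adjusted p = 0.361 and 0.0846) or the second C4-2B library (0.276).

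The integrated stress response and the unfolded protein response raise ATF4, a transcription factor that with C/EBP partners binds the composite site TGATGNAA and turns on amino acid transport, amino acid synthesis and tRNA charging. This element stood in the upstream window of 7 of the 46 listed genes matched by symbol to a RefSeq promoter, against 1061 of 27305 genes (3.89%). It stood in 5 of 32 that fell, 2 of 12 not called and 0 of 2 that rose. None of the tRNA synthetases matched a promoter entry by the symbol used here, and other symbols were not tried, so they were not searched. ASNS and CHAC1 are shown as known targets that hold it (GRCh38.p14, the gene's strand, 5′ to 3′, match in capitals).
ASNS (chr7:97872409-97872658, minus strand): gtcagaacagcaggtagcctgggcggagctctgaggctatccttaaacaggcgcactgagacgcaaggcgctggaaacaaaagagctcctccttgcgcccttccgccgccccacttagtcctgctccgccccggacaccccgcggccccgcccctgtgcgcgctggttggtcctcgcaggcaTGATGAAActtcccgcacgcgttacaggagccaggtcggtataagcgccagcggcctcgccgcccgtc
CHAC1 (chr15:40953221-40953470, plus strand): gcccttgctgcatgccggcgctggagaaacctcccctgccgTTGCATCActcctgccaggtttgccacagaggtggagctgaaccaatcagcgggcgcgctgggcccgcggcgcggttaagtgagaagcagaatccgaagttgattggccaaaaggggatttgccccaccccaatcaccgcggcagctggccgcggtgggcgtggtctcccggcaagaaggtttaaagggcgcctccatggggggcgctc
ASNS, asparagine synthetase, was at 98.1 and 111 in C4-2BENZR, against 246 and 279.9 in C4-2B, and CHAC1, which degrades glutathione, at 7.56 and 8.22 in C4-2BENZR, against 27.7 and 31.3 in C4-2B. Both genes were lower in each C4-2BENZR library than in each C4-2B library.

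Of the 65 tested members of this list 50 fell and 2 rose. ATF4 was at 343 and 368 in C4-2BENZR, against 587 and 615 in C4-2B, and its partners CEBPG and CEBPB at 44.5 and 45.1 in C4-2BENZR, against 119 and 121 in C4-2B and at 56.2 and 55.6 in C4-2BENZR, against 101 and 107 in C4-2B. In amino acid transport and synthesis 18 of 19 fell and the other was not called (median log2 change −0.84), and the group's summed level was 3312 and 3378 in C4-2BENZR against 5581 and 5544 in C4-2B. SLC1A4, a neutral amino acid transporter, was at 9.07 and 7.76 in C4-2BENZR, against 42.9 and 37.3 in C4-2B, and PSAT1, of serine synthesis, at 184 and 187 in C4-2BENZR, against 434 and 468 in C4-2B. The cationic transporter SLC7A1 fell 2.08-fold and the leucine transporter SLC7A5 1.92-fold, and SLC38A2 was not called, at 304 and 316 in C4-2BENZR, against 293 and 302 in C4-2B. Of 13 cytosolic tRNA synthetases 12 fell, by log2 changes between −0.72 (IARS) and −0.27 (TARS; −0.21, adjusted p = 0.0758 without the first C4-2BENZR library), with WARS not called. Of 8 stress effectors 6 fell (median −1.10), among them DDIT4, an inhibitor of mTORC1, at 119 and 125 in C4-2BENZR, against 294 and 306 in C4-2B, and the cytokine GDF15, at 20.5 and 25.3 in C4-2BENZR, against 116 and 127 in C4-2B. Chaperones of the endoplasmic reticulum moved differently: 7 of 15 fell and 2 rose (3 and 1 without the second C4-2BENZR library, 4 and 4 under scaling by total counts), with a median of −0.09 that became 0.01 under scaling by total counts. HSPA5, the chaperone that keeps the sensors inactive, was at 1051 and 1142 in C4-2BENZR, against 1154 and 1269.5 in C4-2B, a call lost without the first (adjusted p = 0.447) or the second (0.0984) C4-2BENZR library and without the second C4-2B library (0.393). HERPUD1, of protein degradation, fell to 86 ± 3.41 in C4-2BENZR, against 182 ± 1.66 in C4-2B.

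**Figure D4:**
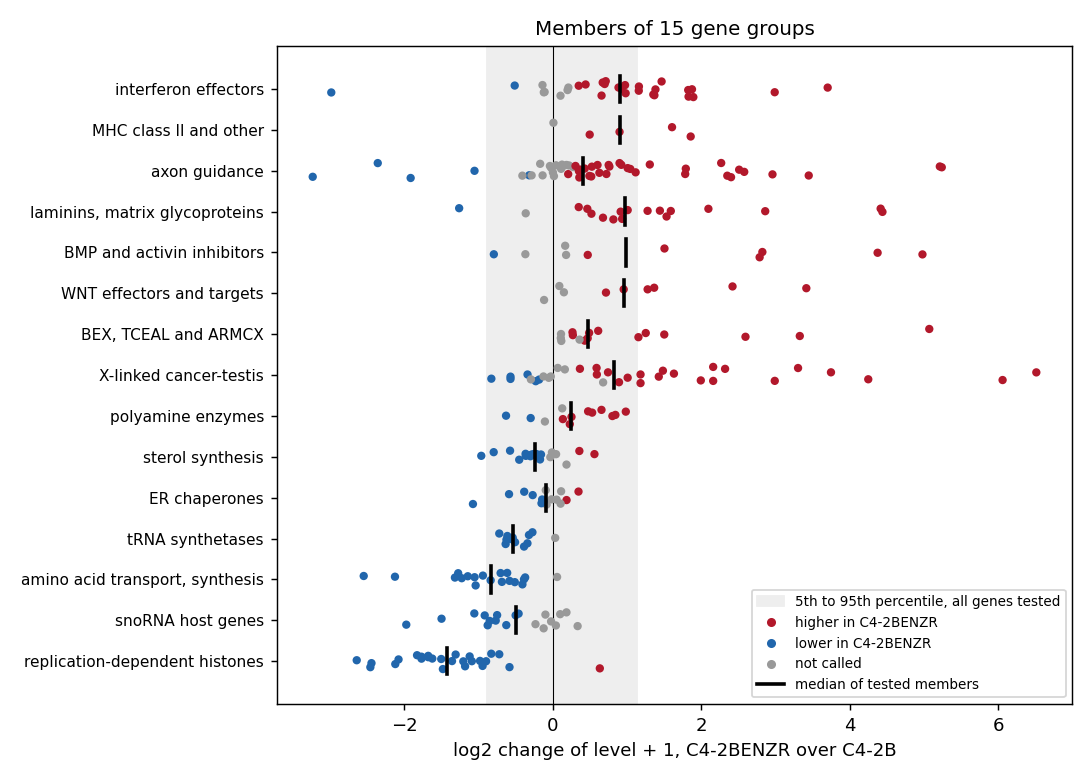
Log2 change of level + 1 for the tested members of 15 gene groups, red where they rose, blue where they fell and grey where not called; black bars are medians and the shaded band spans the 5th to 95th percentile of all tested genes (−0.88 to 1.13). Members of the amino acid, tRNA synthetase and histone groups lie almost wholly left of 0, those of the laminin and WNT effector groups almost wholly right of it.

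Several lipid genes fell. Of the 21 tested genes of fatty acid synthesis and desaturation 5 rose, 7 fell and 9 were not called (7 rose and 7 fell under scaling by total counts). The shares of 23.8% and 33.3% were near the 27.8% and 29.0% of all tested genes. SREBF1, the master factor of fatty acid synthesis, was at 438 and 447 in C4-2BENZR, against 1194 and 1159 in C4-2B, and INSIG1, its retention factor and target, at 181 and 193 in C4-2BENZR, against 339 and 379.7 in C4-2B. Of 20 sterol synthesis genes 14 fell and 2 rose (9 and 2 without the second C4-2BENZR library, 9 and 3 under scaling by total counts). SQLE, squalene epoxidase, rose to 95.8 ± 6.25 in C4-2BENZR, against 64.7 ± 7.51 in C4-2B, against a fall of its neighbour in the pathway, FDFT1 (−0.96). NPC1, of lysosomal cholesterol export, was at 60.4 and 55.2 in C4-2BENZR, against 152 and 163 in C4-2B, and its partner NPC2 rose to 52.8 ± 3.81 in C4-2BENZR, against 36.8 ± 0.239 in C4-2B. In fatty acid metabolism ELOVL7, an elongase, was at 75.2 and 75.2 in C4-2BENZR, against 604 and 672 in C4-2B and ACSL1, a fatty acid activating enzyme, at 133 and 129.5 in C4-2BENZR, against 442 and 459 in C4-2B. The desaturase SCD fell to 753 ± 16.4 in C4-2BENZR, against 1296 ± 50.7 in C4-2B, while SCD5, its other human form, was at 26.2 and 29.7 in C4-2BENZR, against 1.75 and 2.28 in C4-2B and rose 13.9-fold. Mitochondrial oxidation showed 2 large changes in opposite directions, ACAA2 at 58.3 and 62.9 in C4-2BENZR, against 4.38 and 4.45 in C4-2B and ACADL at 6.001 and 5.44 in C4-2BENZR, against 51.1 and 58.9 in C4-2B. LPL, lipoprotein lipase, was at 1.65 and 2.37 in C4-2BENZR, against 35 and 29.8 in C4-2B. Of the 26 tested genes of uptake and oxidation 6 rose, 9 fell and 11 were not called (9 rose and 8 fell under scaling by total counts).

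Of glutathione enzymes, GGT1, which breaks down extracellular glutathione, was at 51.7 and 54.4 in C4-2BENZR, against 192 and 191 in C4-2B, GPX4, which removes lipid peroxides, at 205 and 221 in C4-2BENZR, against 348 and 329 in C4-2B, and GCLC, the rate-limiting enzyme of synthesis, at 30.7 and 28.3 in C4-2BENZR, against 44.1 and 51.8 in C4-2B; all fell. The glutathione transferases GSTM2, at 14.9 and 13.8 in C4-2BENZR, against 0 and 0.776 in C4-2B, and GSTM3, at 179 and 186 in C4-2BENZR, against 81 and 80.02 in C4-2B, rose. Of 13 polyamine genes 9 rose and 2 fell: spermine synthase SMS was at 418 and 414 in C4-2BENZR, against 206 and 213 in C4-2B, and OAZ1, the antizyme that inhibits ODC1, at 673 and 664 in C4-2BENZR, against 1020.4 and 1049 in C4-2B. Among enzymes of drug metabolism 14 of 26 rose and 9 fell (8 and 7 without the second C4-2BENZR library), with CYP1A1 at 13.5 and 14.2 in C4-2BENZR, against 3.97 and 4.61 in C4-2B and the epoxide hydrolase EPHX1 at 362 and 377 in C4-2BENZR, against 696 and 705 in C4-2B. The cation transporter SLC22A3 was at 52.8 and 50.4 in C4-2BENZR, against 276 and 267 in C4-2B, and SLCO3A1, an organic anion transporter, at 15.4 and 15.6 in C4-2BENZR, against 1.65 and 2.02 in C4-2B. PLA2G16, a phospholipase, was at 56.2 and 60.1 in C4-2BENZR, against 9.9 and 10.9 in C4-2B and PTGER4, a prostaglandin E2 receptor, at 0.52 and 0.463 in C4-2BENZR, against 7.17 and 5.43 in C4-2B.

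Cell cycle genes fell by small amounts, 32 of 56 lower and 6 higher (19 and 6 without the first C4-2BENZR library, 22 and 10 under scaling by total counts), with a median of −0.23. The transcription factor MYB was at 12.4 and 9.67 in C4-2BENZR, against 25.2 and 23.8 in C4-2B (lower) and CDK6, a G1 kinase, at 5.95 and 6.25 in C4-2BENZR, against 2.42 and 3.11 in C4-2B (higher). Of 84 genes of the cytosolic ribosome 50 fell and 7 rose (median −0.17; 36 and 19 with a median of −0.07 under scaling by total counts), or 33 and 4 without the first C4-2BENZR library and 36 that fell without the second. Of 157 mitochondrial ribosome and respiration genes 78 fell and 21 rose (median −0.16; 59 and 33 with a median of −0.06 under scaling by total counts), or 54 and 9 and 60 and 8 without these libraries, with NDUFB4, a complex I subunit, at 127 and 136 in C4-2BENZR, against 305 and 319 in C4-2B. Replication-dependent histone genes, whose messages mostly lack a poly(A) tail and are therefore poorly caught in polyadenylated RNA, fell in 25 of 26 tested cases (median −1.42; 35 listed). HIST1H2AC was at 3.78 and 3.18 in C4-2BENZR, against 25.8 and 28 in C4-2B and HIST1H3H at 2.55 and 1.85 in C4-2BENZR, against 16.5 and 16.1 in C4-2B. HIST2H2AC was the 1 that rose, a call lost without either C4-2BENZR library (adjusted p = 0.0501 and 0.163) or the first C4-2B library (0.154). HIST2H2AA3 and HIST2H2AA4 had identical values, as had HIST2H4A and HIST2H4B, so their reads are shared and such pairs are not separate evidence in counts. Host genes of small nucleolar RNAs fell in 11 of 19 cases, with 8 not called, with SNHG19 at 18.8 and 12.8 in C4-2BENZR, against 67.8 and 60.1 in C4-2B and GAS5 at 69.98 and 71.1 in C4-2BENZR, against 99.7 and 95.2 in C4-2B.

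The X-linked cancer-testis families encode proteins normally found in germ cells. Of 34 tested, 21 rose and 6 fell (20 and 3 without the second C4-2BENZR library). VCX was at 169 and 167 in C4-2BENZR, against 1.81 and 1.29 in C4-2B and its relatives VCX2, VCX3A and VCX3B had means of 11, 27.9 and 7.58 in C4-2BENZR and were below 1 in C4-2B. CTAG2 was at 82.5 and 92.1 in C4-2BENZR, against 6.34 and 4.87 in C4-2B, and GAGE12G at 245 and 240.0 in C4-2BENZR, against 68.3 and 88 in C4-2B. MAGE-A genes went both ways, with MAGEA10 at 99 and 107 in C4-2BENZR, against 52.2 and 49.3 in C4-2B (higher), and MAGEA1 at 85.8 and 86.2 in C4-2BENZR, against 154 and 152 in C4-2B (lower). Members of one family are near-identical, and MAGED4 with MAGED4B, XAGE1B with XAGE1E and NXF2 with NXF2B had identical values. Single values are therefore uncertain, and such pairs are not separate evidence in the counts. BRDT, a testis bromodomain gene on an autosome, was at 7.23 and 9.03 in C4-2BENZR, against 0.516 and 0.828 in C4-2B. The X-linked BEX, TCEAL and ARMCX genes, small adaptor-like genes of nerve cells that lie side by side, rose in 12 of 16 cases, with 4 not called. BEX1 was at 30.6 and 36.6 in C4-2BENZR, against 0.0516 and 0 in C4-2B, BEX4 at 16.4 and 17.2 in C4-2BENZR, against 4.9 and 5.69 in C4-2B and ARMCX4 at 40.7 and 33.1 in C4-2BENZR, against 2.58 and 2.95 in C4-2B.

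Homeobox genes of the HOXA cluster went both ways. HOXA4, HOXA9, HOXA10 and HOXA11 rose (log2 changes 1.25, 1.05, 0.67 and 1.48), and HOXA5 and HOXA13 fell (−1.76 and −1.57). HOXA11 was at 27.7 and 29.5 in C4-2BENZR, against 10.6 and 8.64 in C4-2B, HOXA13 at 0.52 and 0.29 in C4-2BENZR, against 2.22 and 4.4 in C4-2B. Of 458 zinc finger genes 133 rose and 72 fell (69 and 39 without the first and 74 and 40 without the second C4-2BENZR library, 164 and 47 under scaling by total counts), the largest changes in each direction being ZNF711 at 10.6 and 11.3 in C4-2BENZR, against 0.0516 and 0 in C4-2B and ZNF837 at 0.709 and 0.521 in C4-2BENZR, against 4.54 and 5.43 in C4-2B. The share of zinc finger genes that rose, 29.0%, was near the 27.8% of all tested genes. The share that fell was 15.7%, against 29.0% of all tested genes. Of the long noncoding genes, the prostate transcripts SCHLAP1, at 1.46 and 1.56 in C4-2BENZR, against 7.17 and 8.13 in C4-2B, and PCAT1, at 2.69 and 1.91 in C4-2BENZR, against 15.1 and 12.5 in C4-2B, fell, while DRAIC, at 4.49 and 3.3 in C4-2BENZR, against 0.0516 and 0.414 in C4-2B, and MALAT1, at 557 and 458 in C4-2BENZR, against 365 and 329 in C4-2B, rose.

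Medians of neighbouring genes kept the same sign over long stretches. Gene order was taken from RefSeq (GRCh38.p14), with 13079 tested genes placed, and medians were computed in windows of 15 consecutive tested genes; 95% of the 12745 windows had a median log2 change between −0.49 and 0.42. The stretches given here are from the longest runs of consecutive windows whose medians had the same sign. Their one-sided medians and counts therefore follow in part from the picking. On chromosome 13 windows were below 0 from one end to the other, and 57.4% of its 223 tested genes fell against 5.83% that rose. On chromosome 5, 55.7% fell and 13.8% rose, with an unbroken stretch of 454 genes between CCNO and LOC100132062 at a median of −0.27. The end of chromosome 4, between PIGY and FRG1, had 198 genes at a median of −0.45, of which 117 fell and 24 rose. The end of chromosome 9 beyond MAPKAP1 had 182 genes at −0.34, and the start of chromosome 19 up to ZNF136 had 250 at −0.35. In the opposite direction, the start of chromosome 7 between PDGFA and POLR2J4 had 155 genes at a median of 0.45, of which 108 rose and 11 fell. Longer stretches above 0 had lower medians and lay on chromosome 1 (191 genes, 0.17), chromosome 12 (177 genes, 0.22) and X (165 genes, 0.18). On chromosome 1, 40.6% of tested genes rose and 15.8% fell.

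Some of the most extreme windows lay inside these stretches, among them those given here for chromosomes 7 and 9. On chromosome 7 the 15 genes between TRA2A and HOXA4 all rose (median 1.09; TRA2A was not called without either C4-2BENZR library or the first C4-2B library, adjusted p = 0.103, 0.0851 and 0.0553), among them OSBPL3, an oxysterol binding protein, at 28.8 and 22.8 in C4-2BENZR, against 4.18 and 5.69 in C4-2B. On X the window between GAGE12G and SSX2 had a median of 1.18, with 12 of 15 genes higher and with NUDT11 at 15.9 and 14.6 in C4-2BENZR, against 1.96 and 1.24 in C4-2B. This X window holds MAGED4 with MAGED4B and XAGE1B with XAGE1E, pairs with identical values that are not separate evidence. On chromosome 19 the window of the kallikrein genes, between POLD1 and VSIG10L, had a median of −0.99; 13 genes fell, and of its 15 genes 2 rose. VSIG10L, which is no kallikrein, was at 17.8 and 15.6 in C4-2BENZR, against 83.9 and 88.6 in C4-2B. On chromosome 9, 14 of 15 genes between C9orf142 and TPRN fell (median −0.98), among them the ATP-cleaving ENTPD2 at 20.2 and 15.8 in C4-2BENZR, against 59.9 and 58.6 in C4-2B. In the histone cluster of chromosome 6 the window between HIST1H2BJ and OR2B6 had a median of −1.09.

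**Figure D5:**
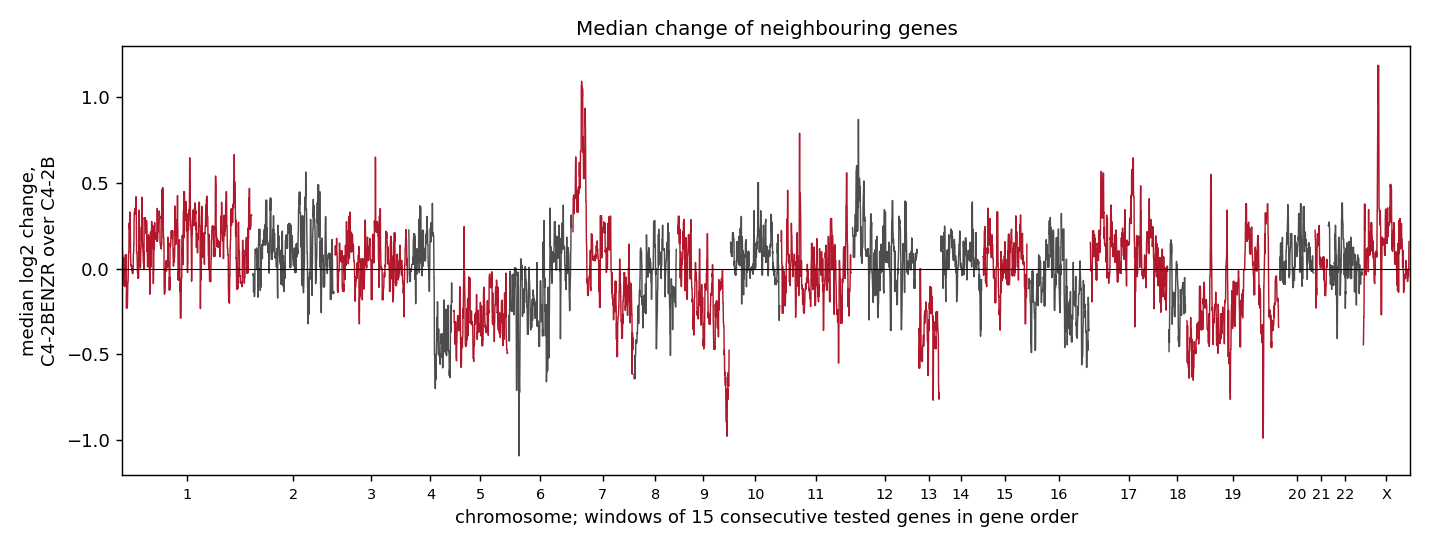
Median log2 change in windows of 15 consecutive tested genes, in gene order along chromosomes 1 to 22 and X, whose lines alternate in colour. Chromosome 13, most of 5 and the ends of 4 and 9 lie below 0, the start of 7 above it, and narrow peaks mark the windows named for chromosomes 6, 7, 19 and X.

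The gene groups were set against their neighbourhoods by subtracting, gene by gene, the median of the 14 nearest tested genes. The median of the amino acid genes was then −0.75, against −0.84 before, and that of the tRNA synthetases −0.32, against −0.57 for the 10 that could be placed. It was 0.74 for the interferon effectors (0.90 before), 1.02 for the laminins and glycoproteins (0.97) and 0.42 for axon guidance (0.40). The BEX, TCEAL and ARMCX genes, which are one another's neighbours, came to 0.08, against 0.48 before, and the X-linked cancer-testis families to 0.36, against 0.74.

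The genes given next are from those with the largest differences between the replicates of a group, at a mean of at least 10 in it. PPAN-P2RY11, a readthrough gene whose reads overlap those of its component genes, was at 6.9 and 24.2 in C4-2BENZR, against 0.155 and 34.4 in C4-2B, and P2RY11 at 14.7 and 6.95 in C4-2BENZR, against 28.3 and 7.76 in C4-2B. GAGE12D was at 8.27 and 26 in C4-2BENZR, against 9.03 and 0 in C4-2B, GTF2H2 at 23.5 and 5.91 in C4-2BENZR, against 2.84 and 10.04 in C4-2B and RGPD5 at 7.94 and 31.6 in C4-2BENZR, against 15.2 and 4.66 in C4-2B, all members of families of near-identical copies. RNA18S5, a ribosomal RNA gene, was at 564 and 512 in C4-2BENZR, against 596 and 301 in C4-2B. Of these 6 genes GAGE12D was the 1 called, and its groups overlapped; it was not called without either C4-2BENZR library (adjusted p = 0.0945 and 0.355) or the second C4-2B library (0.254). The sign of PPAN-P2RY11 turned with the C4-2B library left out (log2 change −1.33 without the first, 3.61 without the second; adjusted p = 0.0420 and 0.000265). Leaving out 1 library also brought calls for P2RY11 (−1.39 without the second C4-2B library), GTF2H2 (1.76 without the second C4-2B library, 1.91 without the second C4-2BENZR library), RGPD5 (1.59 without the first C4-2B library) and RNA18S5 (0.84 without the first C4-2B library).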

How the data were processed

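RNA of C4-2BENZR and C4-2B cells was isolated on Qiagen RNeasy columns with DNase I and sequenced at Novogene with paired ends, per the labels. Reads were mapped to hg19, per the submitters' processing notes; how strand was treated in counting is not given in the sources used here. Per gene, the deposited signal is reads divided by a size factor of the library. This follows since 100% of the values were within 0.02 reads of a whole number times the level of 1 read. The same values, unlogged, entered the analysis: log2(signal + 1), genes of at least 1 in at least 2 libraries, limma 3.58.1 with a mean-variance trend (R 4.3.3), Benjamini-Hochberg adjustment. The filter can pass a gene through the group where it is high. The level of 3 reads was 0.142 to 0.174, which covers counting error only. Library pairs labelled as replicates differed by more than counting noise (mean chi-square 3.99 between the C4-2BENZR libraries and 5.67 between the C4-2B libraries).

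The alternatives used edgeR 4.0.16 (quasi-likelihood), limma-voom and DESeq2 1.42.0 on the recovered reads, other filters and pseudocounts, each library left out, and lists set against neighbouring genes, the last chosen after seeing the data. The fit was tested on simulated data. The authors' deposited fold changes and p-values of the comparison were not used. Members, gene lists and the rule for named genes were chosen with earlier results of these data known. The rule took the 15 highest and 15 lowest called genes of mean at least 5, the 8 largest gains and losses of level, up to 4 called members per list and role with up to 2 of opposite direction, the genes with the most variable replicates, and the ends and largest members of extreme windows; other genes named were chosen after their values were seen. Chromosome Y genes, XIST and some other genes that the rule names are not reported here. Replicate numbers were not taken to pair the libraries: the labels do not tie them, and the correlation of deviations was 0.0502 (0.172 over genes of mean at least 10). Gene order and promoters came from RefSeq GRCh38.p14. Genes were matched by symbol, with synonyms for gene order but not for promoters. No coordinate of the deposited build was used with gene order or promoters.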

Additional observations from a re-analysis of the deposited data

How the results depend on the processing

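With n = 2 libraries per group, leaving out 1 leaves a lone library that is assumed to vary like the other group. The 3691 higher and 3856 lower calls ranged from 2400 to 3228 and from 2666 to 3306 with each library left out in turn, and the 818 and 500 calls of at least 2-fold from 823 to 850 and from 512 to 536. Tested against a fold of 1.5 (limma treat), 741 genes were higher and 567 lower. A pseudocount of 5 lowered the 2-fold counts to 330 and 247, which its own shrinking of low genes gives, and a filter of 5 to 523 higher, with 11253 genes tested. The count test on the recovered reads (edgeR, quasi-likelihood) called 3767 genes higher and 3755 lower. Under the other alternatives run, these counts stayed within 1.5 times. No gene called with all 4 libraries was called in the opposite direction under any of them. Of the genes named, KLK4, GATA2, HSPA5, TAPBP, ERAP1, POLD1 and CD68 lost their calls under scaling by total counts (edgeR). REST, ISG15, ITGB4, SLC38A2, AXIN1, GTF2H2, RGPD5 and RNA18S5, not called in the main fit, were called as higher under it. With the replicate block 4036 genes were higher and 4212 lower; the labels do not tie the numbers, and 2 pairs are too few to show a pairing. Medians of lists depend on the pseudocount, and some near 0 changed sign. Under the filter of 5, which leaves out low genes, the median of vesicle fusion genes went to −0.02 (0.24 before), that of potassium channels to −0.22 (0.20), of 2-pore and calcium gated channels to −0.27 (0.27) and of the insulin-like growth factor axis to −0.27 (0.28). Depth limits the genes near the level of 3 reads.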
